A study of Mus musculus with 4 samples.

Results

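GABA-A receptors are ligand-gated chloride channels. This account follows 7 genes that encode their subunits in cortex of neuron-specific Gclc-knockout mice: Gabra2, Gabra3, Gabra4, Gabra5, Gabra6, Gabrb1 and Gabrb2. The members were taken by symbol from the gene table of the deposited matrices, and all 7 were found among 32285 genes. The data are single-nucleus RNA-seq of cortex from 4 mice, with 2 libraries at 3 months and 2 libraries at 6 months of age and 1 mouse per library. The libraries are named by age in months and replicate number: 3M-1 with 3M-2, then 6M-1 with 6M-2. Values by library are given in this order. In these Gclc-KO mice the floxed gene for GCLC is deleted by Cre under the CaMKII promoter. GCLC is the catalytic subunit of the enzyme that starts glutathione synthesis. The study describes the knockout as specific to neurons. Whether the deletion reached excitatory and inhibitory neurons alike was not tested, and this holds for every comparison between these classes. All 4 mice carried the deletion and no library came from a wild-type animal, so the comparisons are between ages and between cell types within Gclc-KO cortex. The cortical regions taken were those rich in rod-shaped microglia, and nuclei were sorted by DAPI before capture.

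A GABA-A receptor is a ring of subunits around a chloride pore, built in most cases from alpha, beta and a further kind of subunit. GABA binds where an alpha and a beta subunit meet. The alpha subunit that a cell uses shapes how the receptor responds to GABA and to drugs such as benzodiazepines. The beta subunits take part in anchoring and trafficking. In the cortex, different neurons use different alpha subunits, receptors with the alpha-5 subunit lie largely outside synapses, and the alpha-6 subunit is best known from cerebellar granule cells.

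The genes lie in 4 places in the mouse genome (GRCm38, which is mm10, with GENCODE M21 gene models). Gabra2 (ENSMUSG00000000560, chromosome 5, 70957597 to 71095849), Gabra4 (ENSMUSG00000029211, chromosome 5, 71569749 to 71658308) and Gabrb1 (ENSMUSG00000029212, chromosome 5, 71658113 to 72149037) share a cluster on chromosome 5. Gabra4 is on the minus strand and Gabrb1 on the plus strand, and the ends of these divergent genes overlap by 196 bases. Gabra6 (ENSMUSG00000020428, 42306437 to 42321072) and Gabrb2 (ENSMUSG00000007653, 42419757 to 42629028) are neighbours on chromosome 11. Gabra5 (ENSMUSG00000055078, 57407672 to 57510059) is on chromosome 7 and Gabra3 (ENSMUSG00000031343, 72432681 to 72656848) is on the X chromosome. The gene bodies run from 14.6 kb for Gabra6 to 491 kb for Gabrb1, and because nuclear RNA holds introns, levels are compared here for the same gene between cell types and not between genes.

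The promoters of Gabra2, Gabra4 and Gabrb1 are shown because these neighbours differed in astrocytes: there Gabra2 and Gabrb1 lay above their excitatory-neuron level, and Gabra4 lay below its own. Each window holds 250 bases before and 50 after a RefSeq start (GRCm38.p6, strand of the gene, 5′ to 3′), and capitals mark the GC box GGGCGG or its complement.
Gabra2 promoter, chr5:71095800-71096099, minus strand: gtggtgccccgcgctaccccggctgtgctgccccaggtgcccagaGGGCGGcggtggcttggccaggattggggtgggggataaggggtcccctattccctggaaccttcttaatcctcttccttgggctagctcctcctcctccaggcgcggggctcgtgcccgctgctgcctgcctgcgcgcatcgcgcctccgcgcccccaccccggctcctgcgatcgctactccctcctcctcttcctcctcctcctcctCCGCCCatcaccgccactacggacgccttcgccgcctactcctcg
Gabra4 promoter, chr5:71658259-71658558, minus strand: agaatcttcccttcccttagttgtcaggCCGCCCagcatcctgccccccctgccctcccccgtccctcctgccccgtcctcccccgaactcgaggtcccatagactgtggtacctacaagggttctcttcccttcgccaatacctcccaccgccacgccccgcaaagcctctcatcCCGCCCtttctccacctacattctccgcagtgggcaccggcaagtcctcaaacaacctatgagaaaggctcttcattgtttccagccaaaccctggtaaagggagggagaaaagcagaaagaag
Gabrb1 promoter, chr5:71657671-71657970, plus strand: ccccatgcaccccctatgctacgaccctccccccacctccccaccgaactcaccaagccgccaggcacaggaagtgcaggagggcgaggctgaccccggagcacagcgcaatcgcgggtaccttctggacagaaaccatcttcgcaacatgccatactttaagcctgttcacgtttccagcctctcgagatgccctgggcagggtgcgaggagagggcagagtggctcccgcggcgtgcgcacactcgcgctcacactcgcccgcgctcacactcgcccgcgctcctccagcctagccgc
The RefSeq starts of Gabra4 and of Gabrb1 shown here lie 387 bases apart. The window of Gabra2 was 70.0% G or C with 2 GC boxes, that of Gabra4 58.7% with 2, and that of Gabrb1 66.0% with 0, against a median of 52.7% over all promoter windows. Gabrb1 has a further RefSeq start inside the gene, whose window (chr5:71699682-71699981, not printed) was 50.3% G or C with 0 GC boxes. A GC box was present in 35.6% of the 32817 windows in the table, so a match is common, and the absence of these letters from a window says nothing about which factors bind there.

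After the filter described in the study, 30515 nuclei remained (6802, 8750, 8111 and 6852 by library), with 59262228 to 65894316 UMIs per library and a median of 5994 to 8140 UMIs per nucleus. Any pair of libraries shared 12 to 19 cell barcodes. No cell annotation was used, so classes were rebuilt from clusters named by marker genes and from a gate on each nucleus, and 26993 nuclei received a type. GABA-A receptor subunits were left out of the clustering. Between 8 of 9 and all of the marker genes of each class were highest in that class. Among subclasses the markers were less exclusive: against all other types, 1 of 6 was highest in layer 2/3 neurons, 3 of 6 in layer 5 and 2 of 4 in layer 6b, and against subclasses of the same class alone 5 of 6, 3 of 6 and 4 of 4. The summed layer 2/3 markers stood at 787 to 945 CPM there and at most 669 CPM elsewhere, and those of layer 6b at 124 to 180 CPM against at most 143 CPM, in Sst interneurons. Layer 6 corticothalamic neurons had 3 of 6 markers highest against all other types, and Lamp5 and Ndnf interneurons 3 of 5. Within the class these were 4 of 6 and 5 of 5. Their summed markers stood at 4155 to 5796 and 2117 to 2446 CPM, against means of 4587 CPM in layer 6b and 2449 CPM in granule-type nuclei. Gclc was at 35.1 to 43.5 counts-per-million (CPM) units in the 4 libraries, and 3′ reads cannot show the deletion. 3M-1 stood farthest from the others: the SD of log2 ratios of excitatory sums was 0.347 to 0.408 for its pairs and 0.239 to 0.306 among the other libraries.

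**Figure D1:**
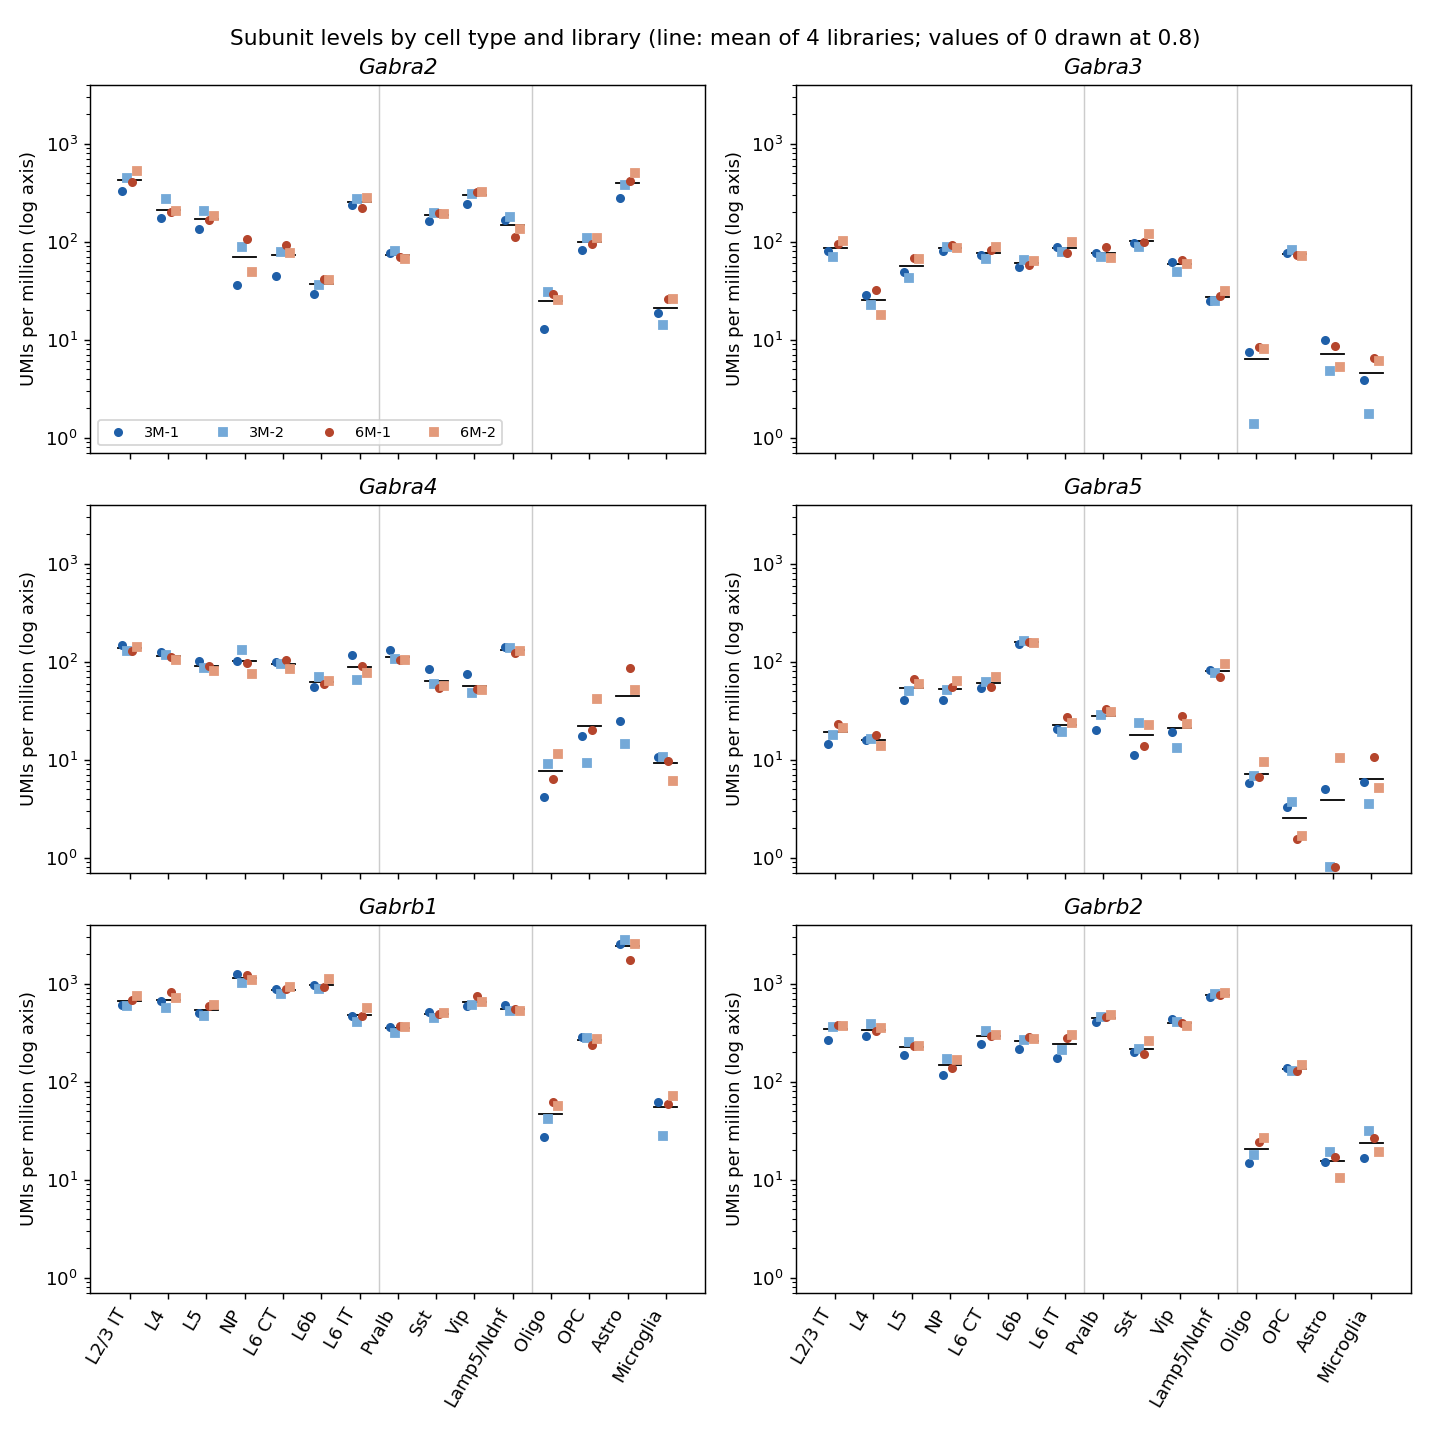
Level of 6 subunit genes in 15 cell types, in CPM on a log axis. Points are the 4 libraries (2 at 3 months, 2 at 6 months) and lines are their mean; a value of 0 is drawn at 0.8. Gabrb1 is highest in astrocytes (mean 2417), Gabra5 in layer 6b neurons (mean 158) and Gabrb2 in Lamp5 and Ndnf interneurons (mean 774).

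Gabra2, which encodes a synaptic alpha subunit, was read in CPM in each library, which is the gene's UMIs in a type scaled by all UMIs of that type. In excitatory nuclei it stood at 218, 312, 286 and 272 CPM and in inhibitory nuclei at 146, 166, 154 and 163 CPM. All 4 inhibitory values lay below all 4 excitatory values. The log2 difference, inhibitory minus excitatory, was -0.98 ± 0.08 (SE) with an adjusted p of 3.71e-12 (edgeR quasi-likelihood test, Benjamini-Hochberg over 14209 genes, library as a block). Of all genes tested, 51.5% passed in this comparison, and 5 of the 6 subunits did. That share includes the genes from which the classes were formed, so it serves as a background only.

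Among the subclasses Gabra2 had a range of 11.6-fold between the highest and the lowest mean. Layer 2/3 intratelencephalic neurons held the highest level, 427 ± 82.0 CPM (SD, n = 4), and layer 6b neurons the lowest, 37.0 ± 5.60 CPM. An excitatory cluster led by Ano2, which its markers did not name, held 661 CPM. Within the inhibitory class Vip interneurons held 299 CPM and Pvalb interneurons 73.6 CPM. Each subclass was tested against the mean of the other subclasses of its class in a fit of 11 subclasses over 14528 genes. In all tests between types the spread is pooled over the types of the fit, from the same 4 libraries. Their p-values thus do not measure the spread between mice for a single type. Gabra2 was higher in layer 2/3 neurons by 2.04 ± 0.09 (adjusted p = 5.74e-24), in layer 6 intratelencephalic neurons by 1.07 ± 0.12 (adjusted p = 1.94e-10) and in Vip interneurons by 1.28 ± 0.12 (adjusted p = 1.4e-12) on the log2 scale. It was lower in layer 6b by -2.17 ± 0.14, in near-projecting neurons by -1.24 ± 0.15, in layer 6 corticothalamic neurons by -1.03 ± 0.12 and in Pvalb interneurons by -1.44 ± 0.13, each with an adjusted p of at most 5.28e-09. Sst interneurons had a difference of 0.36 ± 0.12 (adjusted p = 0.0265).

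Gabra3, an X-linked gene for a further synaptic alpha subunit, was at about the same level in both neuronal classes. Excitatory nuclei held 70.5, 64.8, 79.0 and 70.0 CPM and inhibitory nuclei 73.3, 63.9, 77.8 and 76.0 CPM, and the ranges overlap. The difference of -0.16 ± 0.08 did not pass (adjusted p = 0.0987). Xist was at 1726 to 1909 CPM in every library and the Y-linked genes read at most 0.137 CPM, so the 4 mice did not differ in sex by these transcripts. Among the named subclasses Gabra3 was highest in Sst interneurons, with 97.8, 89.3, 99.4 and 120 CPM, a difference of 1.04 ± 0.10 from the other inhibitory subclasses (adjusted p = 2.55e-11). The Sst range overlapped that of near-projecting neurons (mean 87.2 CPM), and an unnamed excitatory cluster led by Ano2 held 118 CPM. Gabra3 was low in layer 4 neurons, with 28.5, 22.8, 32.0 and 17.7 CPM (-1.48 ± 0.10, adjusted p = 4.36e-17), and in Lamp5 and Ndnf interneurons, with 25.0, 25.0, 28.0 and 31.5 CPM (-1.56 ± 0.15, adjusted p = 7.86e-12). These 2 subclasses do not overlap in range with any other neuronal subclass. Layer 2/3 and Pvalb neurons had 0.59 ± 0.07 and 0.49 ± 0.10.

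Gabra4, whose alpha subunit is found largely in extrasynaptic receptors, varied least between neurons, with a 2.43-fold range of subclass means. Its excitatory values were 111, 102, 95.7 and 87.7 CPM and its inhibitory values 108, 88.9, 84.7 and 84.1 CPM. The ranges overlap, and the difference of -0.31 ± 0.11 (adjusted p = 0.0137) did not pass with plain library totals (-0.12, adjusted p = 0.37), with DESeq2 (adjusted p = 0.32), without 6M-1 (-0.27, adjusted p = 0.076) or with the mouse not blocked (adjusted p = 0.137). The highest subclasses were layer 2/3 neurons (137 CPM, 0.68 ± 0.07, adjusted p = 2.22e-11) and Lamp5 and Ndnf interneurons (133 CPM, 0.79 ± 0.10, adjusted p = 2.48e-08). Vip interneurons (56.5 CPM, -0.74 ± 0.11), Sst interneurons (-0.58 ± 0.10) and layer 6b neurons (61.8 CPM, -0.76 ± 0.09) were lower, and Pvalb interneurons were higher (0.52 ± 0.09). In the order of all 15 types, every pair of neighbours overlapped in range.

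Gabra5, the gene of the subunit associated with tonic inhibition, was highest in layer 6b among the named types. Layer 6b neurons, the deepest and earliest-born neurons of the cortex, held 151, 162, 161 and 156 CPM in the 4 libraries. Lamp5 and Ndnf interneurons, among them neurogliaform cells of the superficial layers, came next with 82.0, 76.1, 69.7 and 95.7 CPM, and the ranges do not overlap. Layer 6 corticothalamic, layer 5 and near-projecting neurons followed at 60.1, 54.5 and 52.9 CPM, with overlapping ranges. Layer 6b was higher than the other excitatory subclasses by 2.26 ± 0.08 (adjusted p = 1.24e-27), and Lamp5 and Ndnf interneurons higher than the other inhibitory subclasses by 1.81 ± 0.14 (adjusted p = 2.47e-15). Layer 2/3 and layer 4 neurons were lower, by -1.23 ± 0.10 and -1.50 ± 0.12, with means of 19.0 and 15.9 CPM. Between the classes, inhibitory nuclei held 25.0, 31.6, 33.1 and 35.5 CPM against 46.5, 44.4, 58.1 and 71.0 CPM in excitatory nuclei, a difference of -0.998 ± 0.09 (adjusted p = 4.8e-11) with no overlap.

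Gabra2 and Gabra5 thus stood at opposite ends in layer 6b, where Gabra2 was lowest of the 11 subclasses and Gabra5 highest. Across the 15 types their mean log2 levels had a Pearson correlation of -0.11, while Gabra4 and Gabrb2 had 0.82, Gabra3 and Gabrb2 0.77, and Gabra4 and Gabrb1 0.73. These correlations are descriptions over types that come from the same 4 libraries and differ in depth.

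Gabrb1 encodes a beta subunit and had more UMIs than any other member, 165780 in all nuclei. Excitatory nuclei held 708, 650, 789 and 850 CPM and inhibitory nuclei 484, 435, 495 and 484 CPM, without overlap (-0.85 ± 0.14, adjusted p = 5.83e-06). Near-projecting neurons had 1159 ± 114 CPM (0.62 ± 0.06 above the other excitatory subclasses, adjusted p = 1.51e-12), followed by layer 6b with 978 CPM (0.46 ± 0.06) and layer 6 corticothalamic neurons with 873 CPM (0.27 ± 0.06). Vip interneurons were higher (0.56 ± 0.06) and Pvalb interneurons lower (353 CPM, -0.66 ± 0.07) than the other inhibitory subclasses. Pvalb interneurons were the lowest neuronal subclass, and their range did not overlap with that of the next, layer 6 intratelencephalic neurons (479 CPM, -0.74 ± 0.06).

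Gabrb2, the gene of the most widespread beta subunit of the adult brain, was the member that was higher in inhibitory than in excitatory nuclei. Inhibitory nuclei held 396, 439, 427 and 440 CPM and excitatory nuclei 225, 301, 283 and 280 CPM, without overlap (0.46 ± 0.07, adjusted p = 2.58e-06). Within the inhibitory class it was unevenly spread. Lamp5 and Ndnf interneurons held 736, 784, 772 and 802 CPM (1.12 ± 0.07, adjusted p = 2.54e-17), and Sst interneurons 200, 217, 192 and 263 CPM (-1.25 ± 0.08, adjusted p = 4.48e-17). Among excitatory subclasses it was lowest in near-projecting neurons, at 148 ± 24.4 CPM (-1.06 ± 0.09, adjusted p = 8.2e-14). That subclass was the one with the highest Gabrb1 among the named neuronal subclasses.

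Of the 66 tests of 6 subunits in 11 subclasses, 47 passed. Among all genes the share that passed was 39.1% for layer 2/3, 40.3% for layer 4, 23.6% for layer 5, 30.9% for near-projecting, 33.4% for layer 6 corticothalamic, 34.7% for layer 6b, 26.8% for layer 6 intratelencephalic, 36.8% for Pvalb, 21.3% for Sst, 23.5% for Vip and 25.7% for Lamp5 and Ndnf neurons. Of the 6 subunits, 5 passed in layer 2/3, layer 4, layer 6 corticothalamic and Sst neurons, 3 in layer 5 neurons and 4 in each of the others. Without 3M-2, Gabra3 in near-projecting neurons, Gabrb2 in layer 6 corticothalamic neurons and Gabra5 in Vip interneurons no longer passed, at 0.31, 0.18 and -0.45. Gabra2 in Sst interneurons was lost with DESeq2 (adjusted p = 0.052), with the stricter gate, with the mouse not blocked and without 3M-2, 6M-1 or 6M-2, at 0.28 to 0.38.

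Astrocytes, the glia that clear transmitter around synapses, held the highest Gabrb1 of any type. The values were 2560, 2816, 1748 and 2546 CPM, all above every neuronal value, from 48, 78, 38 and 48 nuclei. Relative to excitatory nuclei of the same library this was 222% to 433%. Tested against the mean of the other glial classes, astrocytes were higher by 4.71 ± 0.13 (adjusted p = 2.98e-25). Gabra2 stood at 280, 376, 420 and 509 CPM in astrocytes, 121% to 187% of the excitatory level, with 3.34 ± 0.14 against the other glia (adjusted p = 9.66e-20). Gabra4 was at 25.0, 14.5, 85.7 and 52.0 CPM from 3 to 10 UMIs per library, 14.2% to 89.5% of the excitatory level (1.73 ± 0.46, adjusted p = 0.00342; without 6M-1, 1.35 and adjusted p = 0.083). Astrocytes were the lowest type for Gabrb2, at 15.003, 19.3, 17.1 and 10.4 CPM from 2 to 4 UMIs per library (-1.44 ± 0.35, adjusted p = 0.00175). In the age fit of astrocytes alone, Gabrb2 did not pass the filter on low counts. Gabrb2 entered the glial contrast because that filter ran over all classes, neurons included.

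After each nucleus was thinned to 1000 UMIs, 183 of 210 astrocytes carried a Gabrb1 UMI, 87.1% (exact binomial 95% interval 81.8 to 91.4, unthinned 97.6%). The same share was 5.26% (4.60 to 5.99, unthinned 9.45%) in oligodendrocytes and 4.67% (3.76 to 5.72, unthinned 9.36%) in microglia, classes with median depths of 2129 and 1836 UMIs against 3090 in astrocytes. For Gabra2 the share in astrocytes was 32.4% (26.1 to 39.2), against 32.2% in layer 2/3 neurons and 1.91% in microglia. Intervals cover counting error over nuclei only, with the nuclei of all libraries pooled. Thinned library by library, the astrocyte shares were 95.8%, 84.2%, 68.4% and 85.4% for Gabrb1. For Gabra2 they were 18.8%, 27.6%, 28.9% and 41.7%. The libraries thus spread beyond both pooled intervals.

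Oligodendrocyte precursor cells (OPC), which receive synapses from neurons, had a different set. Their Gabra3 was 76.2, 82.5, 72.4 and 71.9 CPM, 91.7% to 127% of the excitatory level, and higher than in the other glia by 3.65 ± 0.21 (adjusted p = 9.3e-17). Gabrb2 stood at 137, 130, 128 and 147 CPM (2.86 ± 0.14, adjusted p = 2.63e-18), 43.2% to 61.0% of the excitatory level. Gabra2 (81.6, 110, 95.6 and 110 CPM, 0.78 ± 0.13, adjusted p = 1.09e-05) and Gabrb1 (285, 279, 236 and 276 CPM, 0.57 ± 0.15, adjusted p = 0.00186) were also higher than in the other glia. Gabra5 in OPC rested on 1 to 3 UMIs per library. The ranges of OPC and astrocytes did not overlap for these 4 genes: Gabra3 and Gabrb2 were higher in OPC, and Gabra2 and Gabrb1 in astrocytes.

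Oligodendrocytes and microglia held low levels of every subunit: from 1.37 to 62.4 CPM in oligodendrocytes and from 1.76 to 71.8 CPM in microglia over the 6 genes and 4 libraries. Against the other glia, Gabra2 (-1.72 ± 0.13 and -2.40 ± 0.16), Gabrb1 (-2.57 ± 0.16 and -2.71 ± 0.18), Gabra4 (-1.10 ± 0.29 and -1.31 ± 0.34) and Gabrb2 (-0.51 ± 0.19 and -0.92 ± 0.22) were lower in oligodendrocytes and microglia respectively. Gabra3 was lower in microglia (-1.91 ± 0.41, adjusted p = 0.000159). In oligodendrocytes Gabra5 was higher than in the other glia by 1.01 ± 0.35 (adjusted p = 0.0169) on 10 to 27 UMIs per library, and this call was lost with library totals (0.75), without the nucleus gate (0.34), without 3M-2 (0.86) and without 6M-2 (1.14). The call on Gabrb2 in oligodendrocytes (adjusted p = 0.0298) was lost without the filter on low counts and without 3M-1, 3M-2 or 6M-1 (-0.54 to -0.40), and that on Gabra4 without 6M-1 (-0.85). Of the 6 subunits, 5 passed in oligodendrocytes, 4 in OPC, 4 in astrocytes and 5 in microglia, where 48.3%, 41.6%, 28.5% and 57.7% of all 14209 genes passed. The filter on low counts ran over all classes, so subunits near the floor in a glial class entered through classes where they were high. In the age fits of a single class, 3 subunits passed this filter in astrocytes and 4 in microglia. Gabrb2 in astrocytes and Gabra3 in microglia were not among them.

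**Figure D2:**
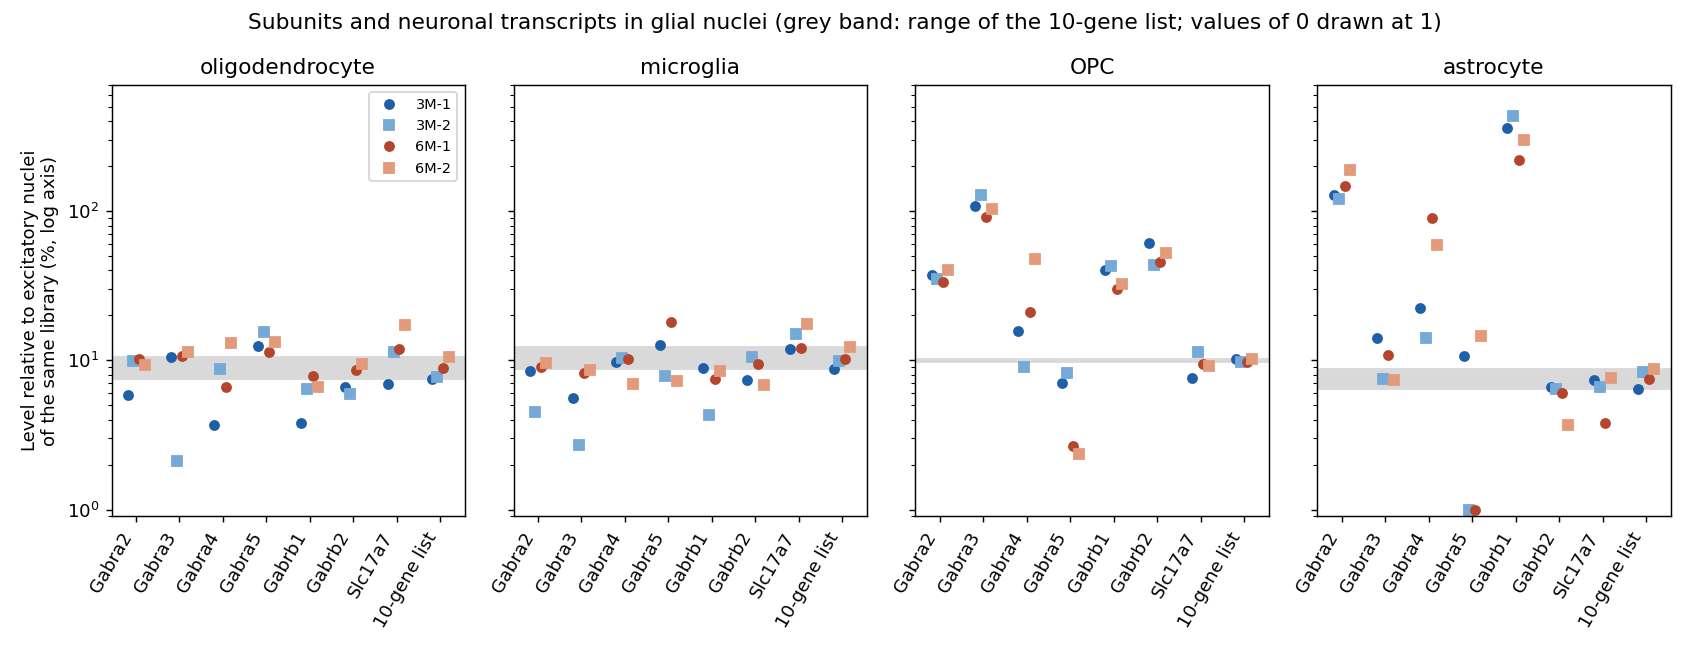
Level of 6 subunit genes in 4 glial classes as a percentage of the level in excitatory nuclei of the same library, on a log axis. Points are the 4 libraries, the columns at the right are Slc17a7 and a list of 10 neuronal transcripts summed, the grey band is the range of that list and a value of 0 is drawn at 1. Gabrb1, Gabra2 and Gabra4 in astrocytes and Gabra3, Gabrb2, Gabra2 and Gabrb1 in OPC lie above the band in all 4 libraries. Most oligodendrocyte and microglial points lie in or near it.

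Neuronal transcripts were read in the same glial nuclei as a check on RNA carried over from neurons. A list of 10 neuronal transcripts, among them Snap25, Syt1 and Slc17a7, summed to 7.54% to 10.5% of its excitatory level in oligodendrocytes, 9.68% to 10.3% in OPC, 6.48% to 8.78% in astrocytes and 8.74% to 12.3% in microglia. Its single genes ranged from 2.40% to 68.6% over the 4 classes and 4 libraries. Of its 10 genes, 3 also served in the gate on nuclei, and without them the sums were 7.26% to 10.1%, 9.68% to 10.4%, 6.35% to 8.63% and 8.58% to 12.0%. In oligodendrocytes the 6 subunits lay at 2.12% to 15.5% of their excitatory level and in microglia at 2.71% to 18.1%, below the highest single genes of the list. Whether these values come from the glia or from carried-over neuronal RNA was not tested. Gabra5 in oligodendrocytes, at 11.4% to 15.5%, lay above the summed list in 4 of 4 libraries and still below those single genes. Gabra3 (7.42% to 14.2%) and Gabrb2 (3.71% to 6.68%) in astrocytes were likewise at the level of the neuronal transcripts. Gabrb1 and Gabra2 in astrocytes, and Gabra2, Gabra3 and Gabrb2 in OPC, lay above the highest single list gene of that class in every library. Gabrb1 in OPC (29.9% to 42.9%) and Gabra4 in astrocytes (14.2% to 89.5%) lay above the summed list in 4 of 4 libraries and above its highest gene in 2. Without the nucleus gate, the list less its 3 gate genes stood at 21.4% to 40.6% in astrocytes, against 6.35% to 8.63% with the gate. Without the gate astrocyte Gabrb1 was at 191% to 310% and Gabra2 at 97.1% to 179%. In that setting Gabrb2 in astrocytes turned to 0.66 above the other glia (adjusted p = 0.039).

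The main question of the age comparison was whether subunit RNA differed between 3 and 6 months in Gclc-KO cortex. No subunit passed in any class. In excitatory nuclei 0 of 6 passed, where 0.00514% of 19459 genes passed (1 gene, with 1236 at an unadjusted p under 0.05), and in inhibitory nuclei 0 of 6, where 0.0% of 15122 genes passed (713 at an unadjusted p under 0.05). With the batch number of the labels as a block, which pairs 3M-1 with 6M-1 and 3M-2 with 6M-2, 10 and 30 genes passed and no subunit did. This number equals the replicate number, so differences given within a batch may not be those of matched mice. DESeq2 called 232 and 23 genes. The p-values set an age difference against the spread between libraries of the same age, which rests on 2 mice per age.

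Gabra5 had the largest difference among the members in excitatory nuclei. It stood at 46.5 and 44.4 CPM at 3 months and at 58.1 and 71.0 CPM at 6 months, without overlap, a log2 difference of 0.48 ± 0.17 (6 minus 3 months, unadjusted p = 0.019, adjusted p = 0.68 in edgeR). Within batch 1 the difference was 0.32 and within batch 2 it was 0.67. In inhibitory nuclei it was 0.29 ± 0.18 (adjusted p = 0.93), from 25.0 and 31.6 to 33.1 and 35.5 CPM. The test of whether the age difference itself differed between the classes gave -0.20 ± 0.15 (inhibitory minus excitatory, adjusted p = 0.91). None of the 7 subunits passed that test, where 0.167% of 19197 genes did.

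The make-up of the excitatory pool differed between libraries, and whether it differed with age was not tested. Not all groups followed age. The cluster led by Ano2 made up 12.0%, 12.0%, 14.0% and 3.79% of excitatory nuclei by library. The cluster led by Rxfp1 had its lowest share in 6M-1 and its highest in 6M-2. The groups given next did not overlap in share between the ages. An unnamed cluster led by Pkp2, with 113 to 130 CPM of Gabra5, made up 1.66% and 0.527% of excitatory nuclei at 3 months and 6.40% and 11.4% at 6 months. Layer 6b neurons made up 5.06%, 3.67%, 5.56% and 8.14%, and layer 2/3 neurons, low in Gabra5, 17.6%, 22.3%, 10.3% and 8.88%. Without the Pkp2 cluster the Gabra5 difference was 0.33 ± 0.17 (adjusted p = 0.87), and over the named subclasses alone 0.44 ± 0.16 (adjusted p = 0.70). Within layer 6b itself Gabra5 was 151 and 162 CPM at 3 months and 161 and 156 CPM at 6 months. Over all 11 subclasses the Gabra5 differences ran from 0.02 to 0.65, with a median of 0.37. What part the make-up of the pool had in the Gabra5 difference was not tested.

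**Figure D3:**
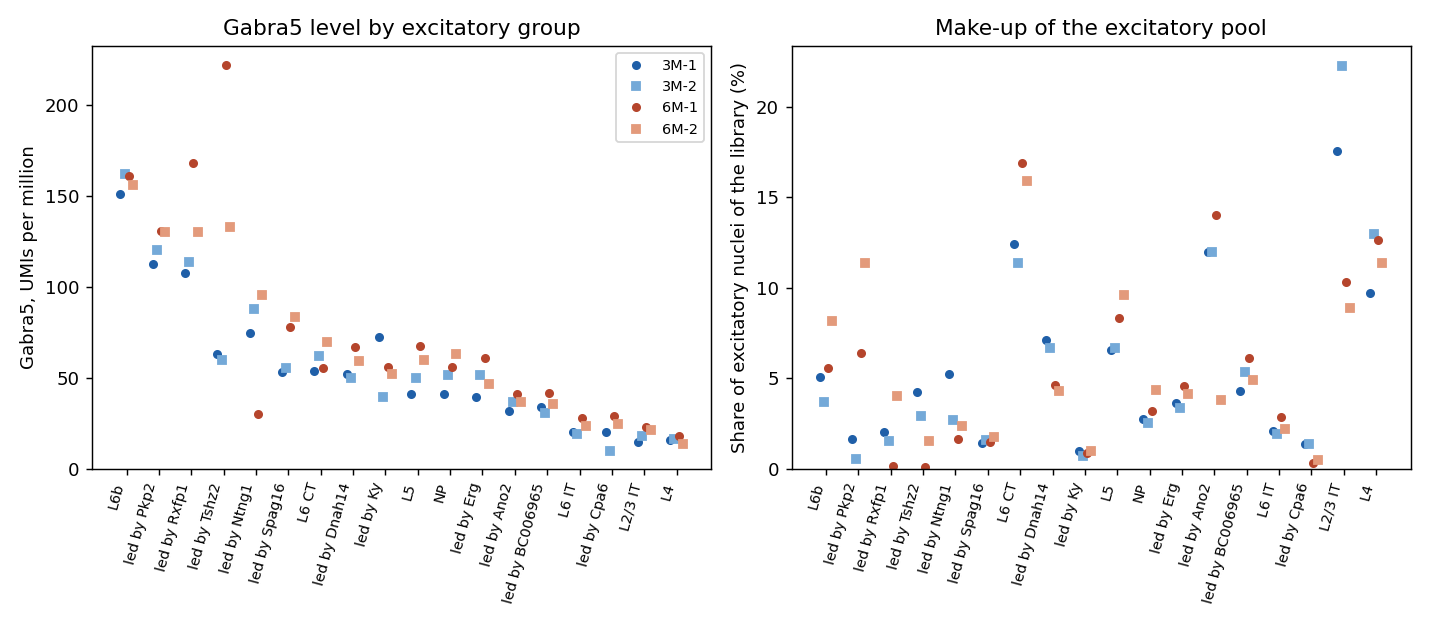
Left, Gabra5 in CPM in each group of excitatory nuclei, 1 point per library. Right, the share of excitatory nuclei that each group made up in the same libraries, in percent. The cluster led by Pkp2, at 113 to 130 CPM, made up 1.66% and 0.527% of excitatory nuclei at 3 months and 6.40% and 11.4% at 6 months.

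Gabra4 differed in the other direction. Its excitatory values were 111 and 102 CPM at 3 months and 95.7 and 87.7 CPM at 6 months, without overlap, with -0.25 ± 0.15 (adjusted p = 0.84). Within batches 1 and 2 the differences were -0.21 and -0.22. Layer 2/3 neurons, the named subclass with the highest Gabra4, made up 17.6%, 22.3%, 10.3% and 8.88% of excitatory nuclei by library. Over the 11 subclasses the Gabra4 differences ran from -0.41 in near-projecting to -0.00042 in layer 2/3 neurons. What part the make-up of the pool had in the Gabra4 difference was not tested. In inhibitory nuclei the difference was -0.22 ± 0.14 (adjusted p = 0.93), from 108 and 88.9 to 84.7 and 84.1 CPM, and -0.35 and -0.08 within the batches. Without 3M-2 this inhibitory difference was -0.39 ± 0.12 with an adjusted p of 0.0217, in a fit that called 1794 genes against 0 with all libraries.

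For the other members the age differences in excitatory nuclei were 0.06 ± 0.16 for Gabra2, 0.11 ± 0.15 for Gabra3, 0.24 ± 0.14 for Gabrb1 and 0.08 ± 0.15 for Gabrb2, with adjusted p of 0.84 to 0.96. Gabrb1 was at 708 and 650 CPM at 3 months and 789 and 850 CPM at 6 months, without overlap. Over the named excitatory subclasses alone the Gabra2 difference was below 0, as given with the alternatives below. Within the batches Gabra2 went in opposite directions, 0.39 and -0.20, as did Gabrb2 with 0.33 and -0.10. Inhibitory differences for these genes lay between 0.03 and 0.17, with adjusted p of 0.94 to 0.99.

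**Figure D4:**
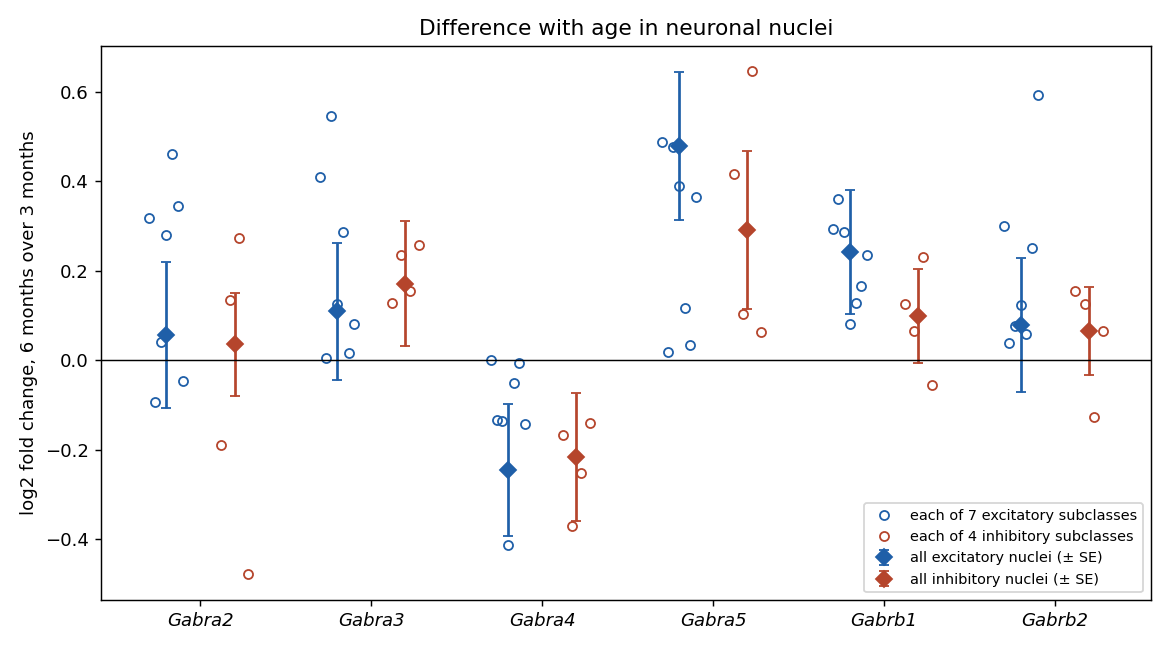
Log2 difference, 6 over 3 months, of 6 subunit genes. Diamonds with bars are the estimates ± SE in all excitatory and all inhibitory nuclei, and open circles are 7 excitatory and 4 inhibitory subclasses. Circles for Gabra5 and Gabra3 lie above 0 and those for Gabra4 below 0, with none past the threshold.

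Across the 11 subclasses 0 of 66 tests passed, with 0.00231% of 130087 gene tests called over all genes (3 calls, and 135 with the batch as a block, none of them a subunit). Gabra5 differences were above 0 in all 11 subclasses, from 0.02 in layer 4 to 0.65 in Vip interneurons with a median of 0.37. Gabra3 differences were likewise above 0 in all 11, with a median of 0.15 and the highest at 0.55 in layer 5. Gabra4 differences were below 0 in all 11, from -0.41 in near-projecting to near 0 in layer 2/3 neurons, with a median of -0.14. These subclasses share the same 4 libraries and are not separate replicates, and without 1 library the median for Gabra4 ran from -0.22 to 0.0044. Gabra2 was above 0 in 7 and below in 4, from -0.48 in Lamp5 and Ndnf interneurons to 0.46 in layer 6 corticothalamic neurons. Gabrb2 had the lowest unadjusted p in layer 6 intratelencephalic neurons, with 174 and 212 CPM at 3 months and 280 and 304 CPM at 6 months (0.59, adjusted p = 0.64).

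In glia 0 of 18 tests passed over the 4 classes, where 0.08% of 36269 gene tests did (29 calls, and 212 with the batch as a block, no subunit among them). Oligodendrocyte Gabrb1 was at 27.1 and 41.9 CPM at 3 months and 62.4 and 56.3 CPM at 6 months, 0.74 ± 0.23 with an adjusted p of 0.46. Relative to excitatory nuclei of the same library these levels were 3.83% to 7.91%, against 7.54% to 10.5% for the summed neuronal list. Without 3M-2 it was 0.98 ± 0.23 with an adjusted p of 0.0398. Astrocyte Gabra4 had 1.68 ± 0.68 (adjusted p = 0.92) on 28 UMIs in all, and astrocyte Gabrb1 -0.36 ± 0.22 (adjusted p = 0.92). OPC Gabra4 had 1.13 ± 0.48 (adjusted p = 0.98), from 17.4 and 9.17 to 20.04 and 41.8 CPM.

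Gabra6 UMIs were concentrated in granule-type nuclei, a group named by markers such as Fat2, Cbln3 and Zic1. Of 344 Gabra6 UMIs in all nuclei, 215 (62.5%) lay in this group, most of them in 3M-2. By library these were 6 of 12, 197 of 305, 0 of 5 and 12 of 22 UMIs. The group held 9, 166, 7 and 11 nuclei by library. With fewer than 10 nuclei in some libraries it entered no test. In 3M-2 the granule-type nuclei held 680 CPM of Gabra6 and 501 CPM of Gabrb2, against 20.7 CPM of Gabra2 and 24.2 CPM of Gabrb1. Thinned to 1000 UMIs, 74 of 165 granule-type nuclei carried a Gabra6 UMI, 44.8% (37.1 to 52.8, unthinned 60.1%), against 0.0245% of oligodendrocytes, at median depths of 1674 and 2129 UMIs. The share in microglia was 0.318%. These shares pool all libraries, while most granule-type nuclei came from 3M-2. In a separate thinning of 3M-2 alone the share was 0.294% in oligodendrocytes and 1.45% in microglia. Outside this group Gabra6 was at 0.0950, 1.73, 0.0759 and 0.169 CPM in the 4 libraries, highest in the library with the most granule-type nuclei. OPC held 0 UMIs of Gabra6 in all libraries. In microglia of 3M-2, 18 UMIs lay in 7 nuclei, of which 6 also carried another granule marker, against 4 UMIs in 3M-1 and 0 in both 6-month libraries.

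Striatal-type spiny neurons, which are not a cortical type, appeared with 160, 180, 173 and 6 nuclei and entered no test. In the 3 libraries with enough nuclei they held 347, 406 and 492 CPM of Gabra2, 46.5, 63.3 and 63.9 CPM of Gabra5 and 185, 227 and 236 CPM of Gabrb2. Their Gabra2 lay in the range of layer 2/3 neurons.

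Other genes of the GABA system, in 5 lists of 28 genes, were read in the same fits. With age 0 of 26 passed in excitatory nuclei and 0 of 26 in inhibitory nuclei, where 0.00514% and 0.0% of all genes passed. In glia 0 of 75 tests passed and in subclasses 0 of 258, where 0.08% and 0.00231% of all gene tests did. Between neuronal classes the synthesis genes Gad1, Gad2 and Slc32a1 were higher in inhibitory nuclei, with 6.55 ± 0.13 for Gad1, and these genes also named the class. Of the uptake and breakdown genes, Abat (2.02), which encodes GABA transaminase, and Aldh5a1 (0.86), which acts after it, were higher there. Of 11 anchoring genes 2 were higher, 3 lower and 6 did not pass, with a median of 0.0031, where 51.5% of all genes passed. Among them were Gabarap (0.35), Slitrk3 (0.57), Plcl1 (-0.41) and Shisa7 (-0.60). Of 3 chloride transporters Slc12a2 (-0.43) and Slc12a5 (-0.46) were lower. In astrocytes the glial GABA transporter Slc6a11 (5.64 ± 0.27), Abat (2.56) and Aldh5a1 (1.42) were higher than in the other glia. In OPC 5 of 11 anchoring genes were higher, 1 was lower and 5 did not pass, with a median of 0.17, where 41.6% of all genes passed. Shisa7 (5.87) and Slitrk3 (5.80) were among those higher.

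Genes most alike in level across the 15 types were named for each member as a description, over 14242 genes. They were Cntn4 (Pearson r = 0.96), Jazf1 (0.94) and Osbpl6 (0.93) for Gabra3, Camkv (0.93), A830018L16Rik (0.93) and Gm17135 (0.92) for Gabra5, and Ttc26 (0.97), Gpm6a (0.95) and Dclk1 (0.95) for Gabrb1. For Gabrb2 they were Ptprn (0.96), Gm28294 (0.95) and Plppr4 (0.95), for Gabra4 1700110K17Rik (0.96), Dok5 (0.95) and Gm47460 (0.95), and for Gabra2 A830082K12Rik (0.85), Mapk4 (0.83) and Syne1 (0.83).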

How the data were processed

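Nuclei from cerebral cortex of 4 Gclc-KO mice were captured with 10x 3′ v3.1 chemistry. The authors deposited raw counts (UMIs per gene and nucleus), made by Cell Ranger 7.0.0 per the file headers, with mm10 as the build and Cell Ranger and Seurat as tools in the submitters' processing notes. The counts were not normalized and the libraries were not pooled. Deposited barcodes were 6836, 8789, 8223 and 6936, with 64857084, 64299223, 71255054 and 63429297 UMIs.

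Nuclei with more than 7000 detected genes or over 1% mitochondrial UMIs were removed, as in the study. No doublet caller was run. Nuclei had been sorted as singlets before capture, and the gate removed nuclei with markers of a second class. The gate cannot see droplets that held nuclei of the same class. Log-normalized counts of 3000 variable genes without GABA-A receptor subunits gave 30 components, 20 neighbours and 42 clusters (Leiden, resolution 1.0, leidenalg 0.10.2). Clusters were named from marker lists. Each nucleus was scored by its UMI share in each class list, relative to the pooled share in clusters of that class. From the list of another class, only genes at no more than 0.2 of that class's level in the nucleus's own class were read, and at least 3 genes. Of the 9 excitatory genes, 3 were read for astrocytes and 5 each for oligodendrocytes and microglia. It was kept when the score of its own class was at least 2 times that of any other class. Striatal-type and granule-type nuclei were gated on the glial scores alone. This left 3522 nuclei (11.5%) without a type. Raw counts were summed per library and type and tested with edgeR 4.0.16 in R 4.3.3 (TMM, filterByExpr, quasi-likelihood test, Benjamini-Hochberg over all genes, threshold 0.05), with no block for age and the library as a block between types. Subclasses needed 10 nuclei in every library. Values in CPM (counts-per-million) and percentages were computed from the counts, and shares after thinning to 1000 UMIs. An interval has 95% coverage, and counting intervals cover counting error only. Fits were tested on simulated data.

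The batch number in the labels equals the replicate number and is shared by both ages, and it was taken as a pairing of the samples. Whether same-numbered libraries were matched was not tested beyond the correlations that follow. Deviations of same-numbered libraries correlated at -0.155 (excitatory, 15318 genes), -0.161 (inhibitory), -0.0204 (oligodendrocytes), -0.0745 (OPC), 0.0249 (astrocytes) and 0.00373 (microglia), and the fit with this block is an alternative. Further alternatives were DESeq2 1.42.0, library totals, no filter on low counts, a gate margin of 4, no gate, no filter on nuclei and leaving out each library. Types without the cluster led by Pkp2, the named subclasses alone and a crossed pairing were chosen after seeing the data. The text names the 7 members in every comparison, the 3 genes most like each across types, and genes of the GABA lists that passed, up to 4 per list, and some genes of these lists are not reported here. Members and lists were chosen with earlier results of these data known.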

Additional observations from a re-analysis of the deposited data

Results flagged for a closer look

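Gabra6 in granule-type nuclei of 3M-2, at 680 CPM, lies outside the comparisons of the report, because 2 of the 4 libraries held fewer than 10 such nuclei. It was picked out because the signal stood above the level outside this group, 1.73 CPM in the same library. Gabra6 marks cerebellar granule cells, and the tissue is labelled cerebral cortex. The group held 9, 166, 7 and 11 nuclei in the libraries at 3 months (replicates 1 and 2) and at 6 months, and how these nuclei entered the libraries was not tested.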

How the results depend on the processing

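Each age comparison has 2 libraries per age, and this number limits every call. With age, no subunit passed in the fits as reported, and over 15 alternative settings 7 of 1186 subunit tests did. These were Gabra6 in microglia (no filter on low counts, and without 3M-1) and in excitatory nuclei (without 3M-1), and, without 3M-2, Gabra4 in inhibitory nuclei, Gabrb1 in oligodendrocytes, and Gabra2 in near-projecting (1.09) and layer 6 corticothalamic neurons (0.87). In each of these settings more genes of all kinds passed in the same comparison than in the fits as reported, as listed below. Without the filter on low counts 294 of 76680 gene tests in glia passed, against 29 of 36269 as reported. The fits without 3M-1 or without 3M-2 rest on a single library at 3 months. The cause of these calls was not tested.

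The number of genes past the threshold with age moved widely. In excitatory nuclei it was 1 as reported, 232 with DESeq2, 0 with library totals, 5 without the filter on low counts, 10 with the batch as a replicate block, 2 without the cluster led by Pkp2, 0 in the named subclasses and 15 to 2003 when a library was left out (116 without 3M-1, 2003 without 3M-2, 20 without 6M-1, 15 without 6M-2). In inhibitory nuclei it was 0, with 23 in DESeq2, 42 without the filter, 30 with the block and 6 to 1794 when a library was left out (107, 1794, 6 and 8 in the same order). In glia it was 29, with 113 in DESeq2, 294 without the filter, 212 with the block and 45 to 1110 (333, 1110, 45 and 52). In subclasses it was 3, with 299 in DESeq2, 617 without the filter, 11 with the stricter gate, 135 with the block and 108 to 3918 (667, 3918, 108 and 140). For the difference between classes it was 32, with 87 in DESeq2, 303 without the filter, 17 with the stricter gate, 17 without the gate, 0 with the mouse not blocked and 21 to 204 (39, 21, 204 and 197). The block changed no call on a subunit. A crossed pairing gave 88 calls in excitatory and 3 in inhibitory nuclei.

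Directions of subunit age differences that did not pass turned as follows. Gabra2 in excitatory nuclei was -0.16 without the cluster led by Pkp2 and -0.23 in the named subclasses, and in inhibitory nuclei -0.0071 with the stricter gate. Gabra4 in astrocytes was -0.0089 without the gate. Gabrb2 in microglia was 0.024 with library totals, 0.014 without the filter and 0.39 with the stricter gate. In the class difference Gabra4 was -0.0038 with totals and Gabra6 was -0.23, -3.29 and -0.97 with DESeq2, the stricter gate and no gate. When a library was left out, the ranges that crossed 0 were -0.14 to 0.26 (Gabra2), -0.020 to 0.22 (Gabra3) and -0.074 to 0.23 (Gabrb2) in excitatory nuclei, -0.029 to 0.090 (Gabra2) and -0.012 to 0.21 (Gabrb1) in inhibitory nuclei, -0.21 to 0.95 (Gabra2) and -0.054 to 0.94 (Gabra4) in oligodendrocytes, -0.080 to 0.34 (Gabra2) and -0.032 to 0.14 (Gabrb2) in OPC and -0.46 to 0.42 (Gabrb2) in microglia. For the class difference they were -0.22 to 0.11 (Gabra2), -0.024 to 0.12 (Gabra3), -0.063 to 0.10 (Gabra4), -0.40 to 0.0096 (Gabra5), -2.65 to 0.56 (Gabra6) and -0.18 to 0.10 (Gabrb2). The median over subclasses ran from -0.11 to 0.34 for Gabra2 and from -0.22 to 0.0044 for Gabra4.

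Between types, the counts of genes past the threshold stayed within 1.5 times under every alternative run, and 4 subunit calls between neuronal classes, 10 among glia and 10 among subclasses were lost in single settings, all on the subunits named with these losses in the report or on Gabrb2 in layer 6 corticothalamic neurons with the mouse not blocked. Gabra3 (inhibitory minus excitatory) was 0.033 with totals. Without the gate, astrocytes had 0.58 (Gabra3), 1.60 (Gabra5) and 0.66 (Gabrb2) and microglia -0.34 (Gabra5). Gabra4 was 0.090 in near-projecting neurons with totals and 0.0036, 0.011 and 0.052 in layer 6 corticothalamic neurons with totals, no filter and the stricter gate. Gabrb1 in Sst interneurons was 0.0081 and 0.026 with the stricter gate and no gate, and Gabra3 in Vip interneurons -0.015 with totals and -0.098 without the gate. Leaving out a library gave -1.42 to 0.19 (astrocyte Gabra5), -0.26 to 0.87 (microglial Gabra5), -0.24 to 0.050 (Gabra4, near-projecting), -0.059 to 0.0081 (Gabra4, layer 6 corticothalamic), -0.0018 to 0.054 (Gabrb2, layer 6b), -0.019 to 0.072 (Gabra3, Vip) and -0.10 to 0.073 (Gabrb2, Vip). None of these had passed except Gabrb2 in astrocytes.

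Without thinning, shares of nuclei with a UMI were 97.6%, 49.3%, 9.45% and 9.36% for Gabrb1 in astrocytes, OPC, oligodendrocytes and microglia, 60.8% and 89.2% for Gabra2 in astrocytes and layer 2/3 neurons, 21.3% for Gabra3 in OPC, 73.6% for Gabra5 in layer 6b, 91.2% and 53.4% for Gabrb2 in Lamp5 and Ndnf interneurons and granule-type nuclei, and 60.1% for Gabra6 in granule-type nuclei. The median gene of the neuronal list was at 7.24% in oligodendrocytes and 9.66% in OPC.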

Other observations

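Nuclei without a type held subunit values that belong to no comparison. A cluster led by Baiap3 had 521 nuclei (224, 56, 224 and 17 by library), with Gabrb1 at 1067, 872, 1032 and 700 CPM. A cluster of 175 nuclei led by Pdgfra, a gene of OPC, also held excitatory markers, whose list scored above that of OPC in it. It had a median of 12070 UMIs and 559 CPM of Gabrb1, and this is no level of OPC. A cluster of 104 nuclei with Enpp6, a gene of newly formed oligodendrocytes, among its leading genes had Gabrb1 at 56.9, 114, 71.3 and 167 CPM by library. Vtn led a cluster of 143 nuclei with Gabrb1 at 86.1, 0, 190 and 360 CPM by library, from 19, 18, 52 and 54 nuclei.

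Among excitatory clusters that the markers did not name, that led by Rxfp1 held the highest mean Gabrb1, 1277 CPM, and that led by Ano2 the highest Gabra2, 661 CPM, and the highest Gabra3, 118 CPM. The share of excitatory nuclei in the cluster led by Ano2 was 12.0%, 12.0%, 14.0% and 3.79%, lowest in 6M-2.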
